A study of Homo sapiens with 12 samples.

Results

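The comparison described here sets A549 cells with an edited miR-22/SNAI1 link against wild type A549 cells when both had been given TGFβ, gene by gene. A549 is an established human lung adenocarcinoma line of epithelial type. The groups compared were wild type with 10 ng/mL TGFβ at day 5 and the edited line, whose genotype is labelled miR22/SNAI1 target site KO, with 10 ng/mL TGFβ at day 5. Each held 3 libraries. The same lines without TGFβ at day 5, again 3 libraries each, serve below as the untreated comparison, so that 12 libraries in 4 groups were used. All groups shared the same medium with serum. The table had 58830 entries, and the test covered the 20456 that reached a value of 10 in 3 or more of the 12 libraries. These are all the genes described, and they were chosen on level alone, which a gene could reach through 1 group only. The labels give 1 edited line, for which the effect of the edit and that of having been derived cannot be told apart. The labels call the libraries biological repeats, and p-values measure the spread between them within groups, pooled over the 4 groups.

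TGFβ binds a pair of receptor kinases that phosphorylate SMAD2 and SMAD3, and these enter the nucleus with SMAD4. In epithelial cells, A549 among them, lasting TGFβ drives epithelial-mesenchymal transition (EMT), in which cell junctions are taken apart and matrix and motility genes come on. SNAI1 is a zinc-finger transcription factor induced early in this program, which represses junction genes through E-box sequences in their promoters. miR-22 is a microRNA, a short RNA that lowers the output of mRNAs whose 3′ untranslated region (UTR) pairs with its seed, bases 2 to 8.

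The seed and its matches are shown because they are what the genotype label refers to. The mature miR-22-3p (RefSeq, GRCh38.p14, chr17:1713914-1713935, minus strand) has its seed in capitals below. In the 830-base 3′ UTR of SNAI1 (ENSG00000124216.3, chr20:49982999-49988886, GRCh38, GENCODE 29) a search for the exact complement of the 7 seed bases found 2 matches, in capitals, at chr20:49988270-49988292 and chr20:49988564-49988586 on the plus strand. The labels do not say which bases were edited, and a match is a description of sequence, not evidence of binding.
hsa-miR-22-3p: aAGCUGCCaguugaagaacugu
SNAI1 match 1: ttctgtggagggagGGCAGCTgg
SNAI1 match 2: atgccccgagcccaGGCAGCTat

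SNAI1 itself was higher in the edited line with TGFβ and not without it. Values are normalized counts, the counts per gene that the authors scaled for sequencing depth. With TGFβ the wild type libraries 1 to 3 read 958, 897 and 768 and the edited libraries 1406, 1214 and 1318. The groups did not overlap, and the log2 fold change, edited over wild type, was 0.59 ± 0.13 (± SE, n = 3 libraries a group, limma adjusted p = 0.00685), or 1.5-fold between the means. Without TGFβ the values were 510.4, 400.4 and 576 in wild type and 513, 499 and 432 in the edited line, a log2 difference of -0.03 that limma did not call. The test of the difference between these 2 differences (the interaction) gave 0.62 ± 0.18 (limma adjusted p = 0.0279). That interaction call was lost without wild type library 2 with TGFβ (0.64), wild type library 1 (0.59) or 3 (0.50) untreated, edited library 1 (0.57) or 3 (0.61) with TGFβ, or edited library 3 untreated (0.54), while the difference with TGFβ was called under every alternative run. Changing a target site need not change the reads of the gene, so SNAI1 reads do not check the edit. MIR22HG, the host transcript of miR-22, read 5024, 5010.0 and 5184 in treated wild type and 4675, 4965 and 4181 in the treated edited line, and was not called (-0.14 ± 0.08, limma adjusted p = 0.313). The mature microRNA itself was not analysed here.

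**Figure D1:**
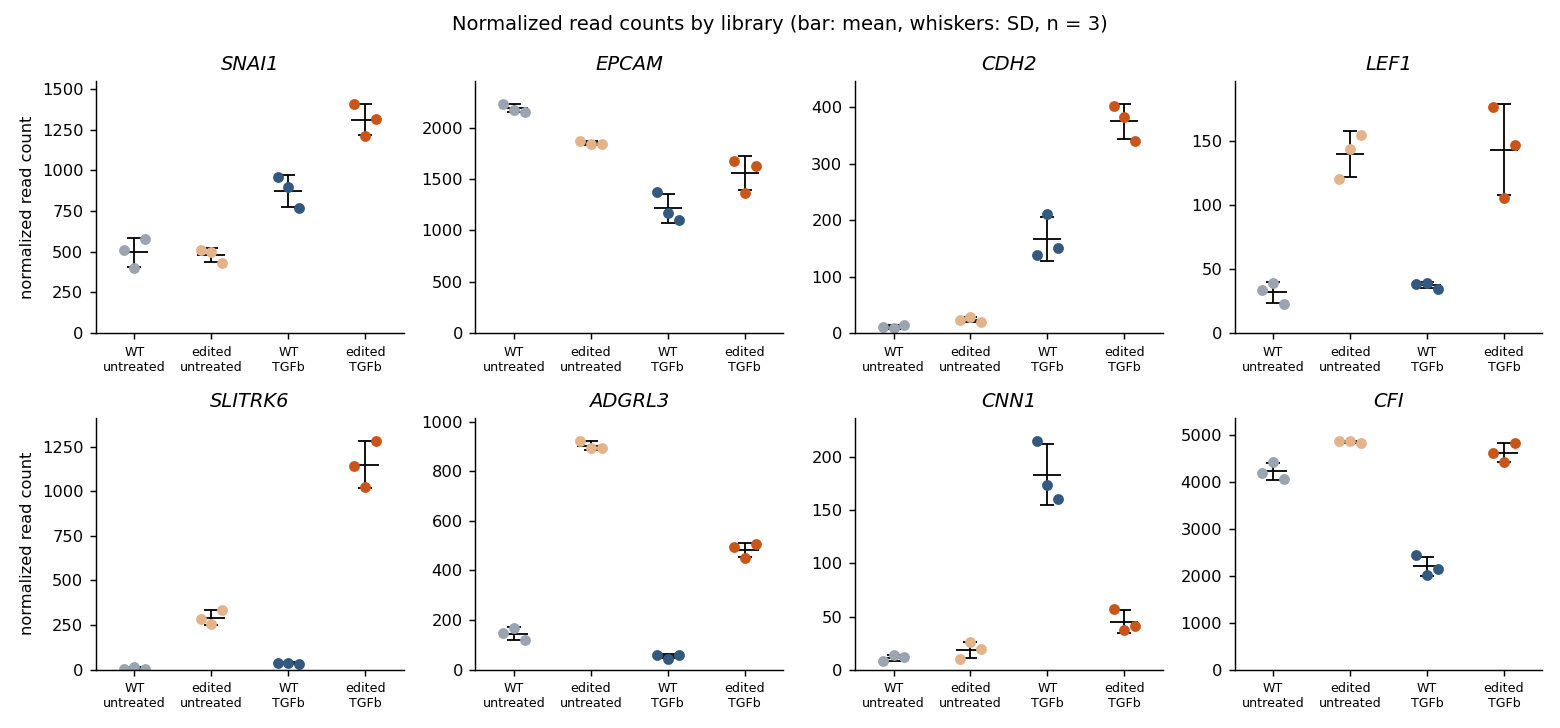
Normalized counts of 8 genes (linear axis from 0, 1 point per library) in the 4 groups of 3 libraries, with the mean and SD. The treated edited libraries lie above the treated wild type libraries for SNAI1, CDH2, LEF1, SLITRK6, ADGRL3 and CFI and below them for CNN1, and for EPCAM the lowest edited value (1369) lies under the highest wild type value (1373).

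Across all genes tested, 1510 were higher in the treated edited line (7.38% of those tested) and 884 were lower (4.32%), at a limma adjusted p under 0.05. Most differences were small: the median size among called genes was 0.398 on the log2(value + 1) scale, and 244 of the higher and 78 of the lower genes reached 2-fold. The scale understates the change of genes with low values. The median of all tested genes was 0.01, and 63.1% of the called genes were higher. That share depended on scaling: it was 48.1% with equal library totals and 50.4% with quantile normalization. Of 14333 protein-coding genes tested, 9.22% were higher and 5.45% lower, and of 2189 genes of other annotated types 2.88% were higher and 1.69% lower. For a single gene, 3 against 3 libraries cannot reach an exact permutation p under 0.1, so all calls rest on the spread that limma shares across genes. That spread was also pooled over the 4 groups, so the standard errors are not those of the treated libraries alone. When only the compared groups were fitted, 859 genes were higher and 324 lower. Leaving out wild type library 2 with TGFβ left 417 genes lower, leaving out wild type library 3 gave 1580, and without edited library 3 there were 896 higher and 491 lower.

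Among the 6 treated libraries, the first principal component (32.6% of variance) separated the lines. The wild type libraries 1 to 3 scored -50.0, -31.0 and -16.6 on it and the edited libraries 30.1, 32.0 and 35.5. Component 2 held 22.9% and placed the wild type libraries between -41.1 and 37.5 and the edited libraries between -22.4 and 26.9, so that the lines overlapped on it. Component 3 held 16.1%, and on it the wild type libraries lay between -12.2 and 13.5 and the edited ones between -32.9 and 41.3. The percentage of the summed values from mitochondrial genes moved with the groups as well: it was 3.79, 3.22 and 2.73 in treated wild type and 2.64, 2.21 and 2.20 in the treated edited line. Its part in the other results was not tested. Recovered reads ran from 84210775 to 111141708 per library.

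**Figure D2:**
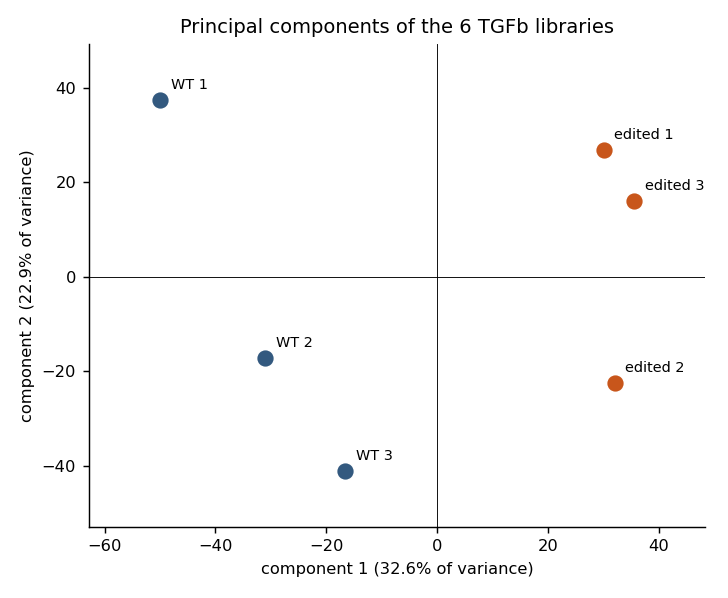
Scores of the 6 treated libraries on principal components 1 and 2 of log2(value + 1). On component 1 the edited libraries lie at 30.1 to 35.5 and the wild type libraries at -50.0 to -16.6, and on component 2 the lines overlap (-22.4 to 26.9 and -41.1 to 37.5).

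Several surface and adhesion genes differed by large amounts. SLITRK6, a leucine-rich repeat membrane protein that organizes synapses and is also found in epithelial tumours, read 39.6, 38.4 and 31.1 in treated wild type and 1141, 1022 and 1283 in the treated edited line. Its log2 difference was 4.95 ± 0.41 (limma adjusted p = 1.42e-06). ADGRL3, the adhesion receptor latrophilin 3, read 59.4, 44.1 and 58 against 494, 451 and 506. Both genes were far apart between the lines in all 3 libraries, and both were also higher untreated (5.32 and 2.64). NRXN3, a neurexin, read 34.1, 24 and 21.9 against 168, 148 and 249. CHL1, a neural adhesion molecule of the L1 family, read 24.2, 37.4 and 48.7 against 263, 270.3 and 291. DCLK1, a microtubule-associated kinase of migrating neurons, read 97.8, 123 and 125 against 408, 413 and 446. None of these groups overlapped, but lack of overlap was a condition of the rankings that hold these genes. The log2 differences of ADGRL3, NRXN3, CHL1 and DCLK1 were 3.15 ± 0.15, 2.76 ± 0.30, 2.92 ± 0.25 and 1.87 ± 0.20 (limma adjusted p of 1.09e-08, 2.07e-05, 2e-06 and 2.46e-05). Of 25 tested members of the Slitrk, latrophilin and partner adhesion list, 12 were higher and 2 lower, with a median of 0.40. Counts of this list and of those below stand against 7.38% higher and 4.32% lower over all tested genes. PTPRD, a receptor phosphatase that binds Slitrk proteins, was among the higher ones: it read 47.3, 54.7 and 131 against 227, 261 and 268 (1.83 ± 0.34, limma adjusted p = 0.00224). FLRT2, a latrophilin ligand, went the other way (323, 322 and 379.9 against 136, 148 and 193, -1.11 ± 0.32, limma adjusted p = 0.0313), but its call was lost when any single treated library was left out (-1.26 to -1.01). UNC5C, a netrin receptor, was the other lower member (-0.73 ± 0.18, limma adjusted p = 0.016), and was not called without wild type library 2 (-0.64) or edited library 1 (-0.70) or 3 (-0.68). In the wider list of axon guidance and neural adhesion genes, 10 of 38 were higher and 2, NTN1 and NRP1, were lower (-0.42 and -0.20), with a median of 0.21. NRP1 was not called without wild type library 2 (-0.17) or edited library 1 (-0.20) or 3 (-0.18). Leaving out wild type library 2 or edited library 3 left 6 of them higher, and leaving out wild type library 3 gave 4 lower.

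Cadherins, the calcium-dependent adhesion proteins that include the classic EMT pair CDH1 and CDH2, had called members in both directions. Of 18 tested, 6 were higher, 2, CDH8 and CDH24, were lower (-1.12 and -0.32) and the others were not called, with a median of 0.28. CDH24 was not called without edited library 3 (-0.30). CDH2, N-cadherin, which mesenchymal cells gain, read 138, 211 and 150.4 in treated wild type and 402, 382 and 341 in the treated edited line. Its difference of 1.19 ± 0.26 (limma adjusted p = 0.00694) was about that seen untreated (1.06), and the interaction was not called (0.13 ± 0.37). With replicate 1 of both treated groups left out, CDH2 was not called (limma adjusted p = 0.0963). CDH1, E-cadherin of epithelial junctions, read 9000.1, 9375 and 9325 against 10647, 10227 and 9981. No edited library was as low as any wild type library, but limma did not call it (0.16 ± 0.06, adjusted p = 0.109). CDH12, a brain cadherin, read 16.5, 11.5 and 17.7 against 243, 227 and 224. CDH19, a cadherin of Schwann cell precursors, read 317, 367 and 401 against 1096, 1359 and 1237. CDH10, another brain cadherin, read 319, 347 and 293 against 873, 793 and 907. These last 3 differed by 3.86 ± 0.29, 1.77 ± 0.13 and 1.42 ± 0.14 (limma adjusted p of 6e-07, 5.89e-07 and 1.06e-05), with no overlap between the groups.

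Of 32 epithelial junction and keratin genes tested, 8 were higher and 1, CGN, was lower, with a median of 0.16 against 0.01 over all genes. CLDN2, a claudin that forms a cation pore in tight junctions, read 4585, 4356 and 3622 in treated wild type and 10564, 9962 and 11333 in the treated edited line (1.35 ± 0.09, limma adjusted p = 2.84e-07). CRB3, an apical polarity protein, read 154, 154 and 161 against 257, 228 and 284 (0.70 ± 0.13, limma adjusted p = 0.00172). Neither gene overlapped between the groups, and both were also higher untreated (1.59 and 0.96). CLDN4, another claudin, read 1196, 1064 and 898 against 1721, 1390.1 and 1496 (0.55 ± 0.14, limma adjusted p = 0.0206). EPCAM, an epithelial adhesion molecule, read 1373, 1166 and 1106 against 1679, 1369 and 1634 (0.36 ± 0.09, limma adjusted p = 0.0146). Edited library 2 lay just under wild type library 1 for EPCAM, so its groups overlapped. Untreated, CLDN4 was higher in the edited line (0.80) but EPCAM was lower (-0.24). Both calls with TGFβ were fragile. CLDN4 was not called without wild type library 2 (0.56) or 3 (0.44) or edited library 1 (0.46) or 3 (0.56), and EPCAM was not called without wild type library 2 (0.33) or edited library 1 (0.31) or 3 (0.33). The count of higher junction genes was 5 without wild type library 2 or without edited library 1, and 3 without edited library 3.

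Among 14 genes published as repressed by SNAI1, 3 were higher by limma, CRB3 and CLDN4 among them. None of the 14 was lower by limma, edgeR or DESeq2, or at an unadjusted limma p under 0.05. Leaving out wild type library 2 or edited library 3 left 1 higher. SNAI1 was itself higher in the same libraries. The CRB3 promoter is printed because this member differed most and its sequence can be read for E-boxes. In the 300 bases around the start of transcription (RefSeq, GRCh38.p14, chr19:6464021-6464320, plus strand), 5 copies of CAGGTG or its reverse complement CACCTG, the E-box that SNAI1 binds, are in capitals. Of 35116 promoters of the same length, 20.6% held at least a single copy on either strand.
CRB3 promoter: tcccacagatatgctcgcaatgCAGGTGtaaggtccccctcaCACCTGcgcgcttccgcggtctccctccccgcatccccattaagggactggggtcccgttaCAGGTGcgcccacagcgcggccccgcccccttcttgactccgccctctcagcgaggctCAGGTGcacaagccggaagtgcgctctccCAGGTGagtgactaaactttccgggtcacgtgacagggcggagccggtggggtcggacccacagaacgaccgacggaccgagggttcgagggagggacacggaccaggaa
The promoters of CLDN4, LEF1, SLITRK6, ADGRL3 and CDH2 in the same table held 0 copies of these letters, which says only that they are not in those windows. 

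Transcription factors of both programs differed in either direction. Of 16 EMT factors, 3 were higher (SNAI1, FOXQ1 and SOX4) and 2 lower (SOX9 and HMGA2), with a median of 0.20. FOXQ1, a forkhead factor, read 1228, 1186 and 1188 in treated wild type and 1781, 1628 and 1698 in the treated edited line (0.50 ± 0.07, limma adjusted p = 0.000171). HMGA2, a chromatin protein induced by TGFβ, read 5101, 5439 and 5562 against 4490.3, 4390.0 and 4717 (-0.24 ± 0.06, limma adjusted p = 0.0122) and was not called without wild type library 2 (-0.23). SOX4 differed by 0.23 ± 0.06 (limma adjusted p = 0.0157), and was not called without wild type library 2 (0.24) or edited library 3 (0.20). SOX9 differed by -0.25 ± 0.07 (limma adjusted p = 0.0409), and was not called without treated wild type library 2 (-0.25) or 3 (-0.22), any treated edited library (-0.26 to -0.24), wild type library 3 untreated (-0.25) or edited library 1 untreated (-0.25). FOXQ1 was thus higher and HMGA2 lower in all 3 edited libraries. SNAI2, the closest relative of SNAI1, read 91.2, 68.1 and 82.4 against 166, 131 and 129.7. The groups of SNAI2 did not overlap, but limma did not call it (0.81 ± 0.37, adjusted p = 0.175), whereas DESeq2 did (adjusted p = 0.0147), as did limma with a pseudocount of 10 (adjusted p = 0.0349). ZEB1, which represses junction genes beside SNAI1, differed by 0.17 ± 0.10 (limma adjusted p = 0.347) with overlapping groups, and was called without wild type library 3 (0.29, limma adjusted p = 0.0349). Of 16 epithelial factors and splicing regulators, 2 were higher and 1, GRHL3, was lower, with a median of 0.13. EHF, an ETS factor of epithelia, read 167, 115 and 161 against 316, 298 and 296 (1.05 ± 0.12, limma adjusted p = 3.67e-05). FOXA1, a pioneer factor of lung epithelium, read 5067, 4977 and 4597 against 5829, 5997 and 5970.2 (0.28 ± 0.06, limma adjusted p = 0.00782). Both were higher in every treated edited library than in any treated wild type library. Untreated, FOXA1 was lower in the edited line (-0.40) and EHF was not called (0.09). GRHL3, a grainyhead factor, differed by -0.55 ± 0.15 (limma adjusted p = 0.0257), and was not called without wild type library 2 (-0.49) or 3 (-0.52) or edited library 1 (-0.50) or 2 (-0.54).

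Mesenchymal and cytoskeletal genes did not lean one way. Of 24 tested, 2 were higher and 1 lower, with a median of 0.01 that turned to -0.02 with equal library totals and -0.01 with quantile normalization. These counts were near the shares over all tested genes, 7.38% higher and 4.32% lower. CNN1, calponin of smooth muscle actin filaments, had the lowest log2 difference of the named genes. It read 215, 174 and 161 in treated wild type and 57.4, 37.7 and 41 in the treated edited line (-2.00 ± 0.34, limma adjusted p = 0.00126). All edited libraries lay far under the wild type ones. TNC, the matrix glycoprotein tenascin C, read 177, 257 and 259.7 against 732, 1079 and 747 (1.88 ± 0.24, limma adjusted p = 9.45e-05). CD44, the hyaluronan receptor, read 37456, 37604 and 35059.5 against 51479.8, 49015 and 52396 (0.47 ± 0.08, limma adjusted p = 0.00131). Both were higher in all 3 treated edited libraries. Untreated, TNC was higher in the edited line too (2.54) but CD44 was lower (-0.42). VIM, the intermediate filament vimentin, read 76708, 68322 and 55815 against 66404, 62939.7 and 64972, with overlap and a difference of -0.04 ± 0.09 (limma adjusted p = 0.85). FN1, fibronectin, read 105274, 131434 and 167149 against 150515, 195166 and 165362, again with overlap (0.36 ± 0.14, limma adjusted p = 0.129), and was called without wild type library 3 (0.53). Without that library 4 members of the list were higher and 3 lower.

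Collagens and the enzymes that crosslink them included members in both directions: of 22 tested, 3 were higher and 1 lower, with a median of 0.10. Over all tested genes, 7.38% were higher and 4.32% lower. COL1A1, the main chain of type I collagen, read 152026, 155661 and 160225 in treated wild type and 109512, 109609 and 105624 in the treated edited line (-0.53 ± 0.09, limma adjusted p = 0.000883). LOX, lysyl oxidase, which crosslinks collagen, read 2709, 2695 and 2569 against 4382, 4284 and 4448 (0.72 ± 0.16, limma adjusted p = 0.00719). COL5A2, a chain of type V collagen, read 22068, 24416 and 27184 against 32264, 31708 and 34107 (0.42 ± 0.07, limma adjusted p = 0.000833). COL1A1 was thus lower while LOX and COL5A2 were higher, each without overlap. Untreated, COL1A1 was also lower in the edited line (-0.79), while LOX and COL5A2 were not called (-0.14 and -0.10). COL1A2, the partner chain of COL1A1, stayed at a few counts in wild type (4.4, 3.84 and 6.72 against 13.6, 56 and 29.6). Untreated wild type was also under the filter value of 10 (1.99, 1.65 and 0). COL1A2 was thus tested only because the edited libraries passed the filter, and its place among the 3 higher genes is no support. Its difference of 2.33 ± 0.61 (limma adjusted p = 0.02) was not called without wild type library 2 (2.19) or edited library 2 (1.85) or 3 (2.30).

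Of 21 matrix proteases and inhibitors, 5 were higher and 2 lower, with a median of 0.17. PLAU, the urokinase that activates plasminogen, read 10058, 9766 and 9234 in treated wild type and 20741, 19224 and 20993 in the treated edited line (1.07 ± 0.06, limma adjusted p = 3.4e-08). ADAM12, a membrane metalloprotease, read 58.3, 41.2 and 81.5 against 181, 176 and 240.0 (1.74 ± 0.23, limma adjusted p = 0.00014). MMP14, the membrane-type collagenase, read 852, 897 and 993 against 512, 704 and 554 (-0.64 ± 0.13, limma adjusted p = 0.00381). PLAU and ADAM12 were higher and MMP14 lower in each treated edited library than in any treated wild type library. Untreated, all of them were higher in the edited line (1.62, 1.69 and 0.54), so MMP14 differed in direction between the conditions. Other higher members included PLAUR, the urokinase receptor (0.66), and the protease inhibitor SERPINE2 (0.33), and the other lower member was ADAMTS1 (-0.53).

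Of 24 genes of TGFβ signalling itself (ligands, receptors, binding proteins and SMADs), 5 were higher and 0 lower by limma, with a median of 0.10. At an unadjusted limma p under 0.05, 1 was lower, as by edgeR and by DESeq2. Leaving out wild type library 3 gave 9 higher. TGFBR1, the type I receptor kinase, read 82872, 90696 and 96684 in treated wild type and 110900.0, 114928 and 125756 in the treated edited line (0.38 ± 0.07, limma adjusted p = 0.00323). SMAD2, which that kinase phosphorylates, read 13445, 13054 and 12559 against 17034, 17030.3 and 17568 (0.40 ± 0.05, limma adjusted p = 9.63e-05), and was not called with transcript length trends removed (0.21, limma adjusted p = 0.368). LTBP3, which holds latent TGFβ in the matrix, read 27551, 27514 and 26354 against 36425, 35728 and 34114 (0.38 ± 0.05, limma adjusted p = 0.00021). All 3 stood apart in each library, and untreated cells gave differences of like size (0.33, 0.39 and 0.48). SMAD9, of the BMP branch, read 148, 146 and 192 against 278, 306 and 336 (0.92 ± 0.12, limma adjusted p = 0.000102). TGFBR2, the type II receptor, differed by 0.22 ± 0.06 (limma adjusted p = 0.0215), and was not called without wild type library 1 (0.18) or 2 (0.21) or edited library 1 (0.20) or 3 (0.19). Of 23 direct SMAD response genes, 7 were higher and 1 lower, with a median of 0.14. IL11, a cytokine that SMADs induce, read 17588, 16293 and 16985 against 29244, 25738 and 28621 (0.72 ± 0.06, limma adjusted p = 1.6e-06). NUAK1, a kinase, read 10034, 10655 and 11441 against 7795, 7545 and 8036 (-0.46 ± 0.06, limma adjusted p = 0.000179). IL11 was the member of this list with the largest difference with TGFβ, and NUAK1 was the lower one. Untreated, the IL11 difference was larger (1.96), so on the log2 scale the rise with TGFβ was smaller in the edited line (interaction -1.25 ± 0.08, limma adjusted p = 7.94e-07). NUAK1 was lower untreated as well (-0.52). KLF10 and LTBP2 were both higher by 0.37 (SE 0.07 and 0.08, limma adjusted p of 0.00356 and 0.00694). Untreated, KLF10 was lower in the edited line (-0.28) and LTBP2 was not called (0.09).

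WNT pathway genes included 8 higher and 0 lower of 35 by limma, with a median of 0.07. At an unadjusted limma p under 0.05, 3 were lower, and edgeR called 2 and DESeq2 3 lower. LEF1, the transcription factor through which β-catenin acts, read 38.5, 39.3 and 34.5 in treated wild type and 176, 106 and 147 in the treated edited line (1.88 ± 0.25, limma adjusted p = 0.000167). WNT5A, a secreted ligand, read 418, 441 and 502 against 883, 824 and 785 (0.87 ± 0.10, limma adjusted p = 3.16e-05). RNF43, a ubiquitin ligase that removes WNT receptors, read 909, 1001 and 974 against 1506, 1425 and 1430.0 (0.60 ± 0.06, limma adjusted p = 2.07e-05). The ligand, the receptor regulator and the nuclear factor were all higher in every edited library. LEF1 and RNF43 were also higher untreated (2.13 and 0.38), and WNT5A was not called there (-0.02).

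Cell cycle genes were lower. Of 30 S phase genes, 0 were higher and 23 lower by limma, with a median of -0.31, and of 30 mitosis genes 0 were higher and 15 lower, with a median of -0.23. Neither edgeR nor DESeq2, nor an unadjusted limma p under 0.05, put any gene of either list higher. MCM10, a factor that starts DNA replication, read 3374, 3372 and 3642 in treated wild type and 2312, 2395 and 2530.0 in the treated edited line (-0.52 ± 0.07, limma adjusted p = 9.68e-05). CDC45, a subunit of the replicative helicase, read 2387, 2304 and 2061 against 1553, 1573 and 1647 (-0.50 ± 0.08, limma adjusted p = 0.000516). CCNB1, the cyclin that drives entry into mitosis, read 22433, 20435 and 18057 against 16441, 15018 and 16003 (-0.36 ± 0.07, limma adjusted p = 0.00357). No treated edited library reached the lowest wild type library for any of the 3. In bulk samples such as these, fewer cells in a phase and less RNA per cell cannot be told apart. The S phase count was 15 without wild type library 2 and 13 when only the compared groups were fitted. The mitosis count was less steady: 7 without wild type library 2, 8 without edited library 3, 3 when only the compared groups were fitted, and 23 with equal library totals. Untreated, 27 S phase genes were lower, 21 of them the same genes as with TGFβ, and the untreated median was -0.87. The interaction was higher for 20 of the 30 S phase genes, that is, their difference was less negative with TGFβ, and lower for 1, CDC6, whose values were 9183, 9312 and 8069 against 6334, 6111 and 5975 with TGFβ.

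Complement and coagulation genes, which lung and liver epithelia secrete, gave 12 higher and 0 lower of 22 by limma, with a median of 0.25. At an unadjusted limma p under 0.05, 2 were lower, and edgeR called 0 and DESeq2 1 lower. CFI, the protease that inactivates complement C3b, read 2429, 2021 and 2139.9 in treated wild type and 4603, 4422 and 4823 in the treated edited line (1.07 ± 0.07, limma adjusted p = 9.92e-08). C3, the central complement component, read 3182, 3528 and 3014 against 5759, 6652 and 5879 (0.91 ± 0.07, limma adjusted p = 1.05e-06). F2, prothrombin, read 170.4, 171 and 140.4 against 324, 278 and 300.3 (0.90 ± 0.13, limma adjusted p = 0.000282). Values were far apart between the groups for all 3. Without TGFβ the same list held 5 higher and 8 lower members with a median of -0.07, and the interaction was higher for 11 by limma and lower for 0 by limma, edgeR, DESeq2 or an unadjusted limma p under 0.05. Mucins and secretory genes gave 5 higher of 16 by limma and 0 lower by limma, edgeR, DESeq2 or an unadjusted limma p under 0.05, with a median of 0.43. MUC13, a membrane mucin, read 1503, 1167 and 1303 against 3157, 2640.3 and 3183 (1.18 ± 0.09, limma adjusted p = 3.61e-07). CRISP3, a secreted cysteine-rich protein, read 7.69, 14.4 and 21.9 against 256, 195 and 246 (15.9-fold between the means, limma adjusted p = 1.56e-07). Both stood apart in every library. MUC5B, an airway gel mucin, was higher by 0.97 ± 0.13 (limma adjusted p = 0.000154), and SPDEF, a goblet cell factor, by 1.01 ± 0.26 (limma adjusted p = 0.0202) but not without wild type library 1 (0.69) or 2 (0.95) or edited library 3 (0.86). TFF3, a trefoil peptide, was listed at 0 in treated wild type and at 4.18, 4.31 and 1.14 in the treated edited line, and its call was lost without edited library 1 or 2.

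**Figure D3:**
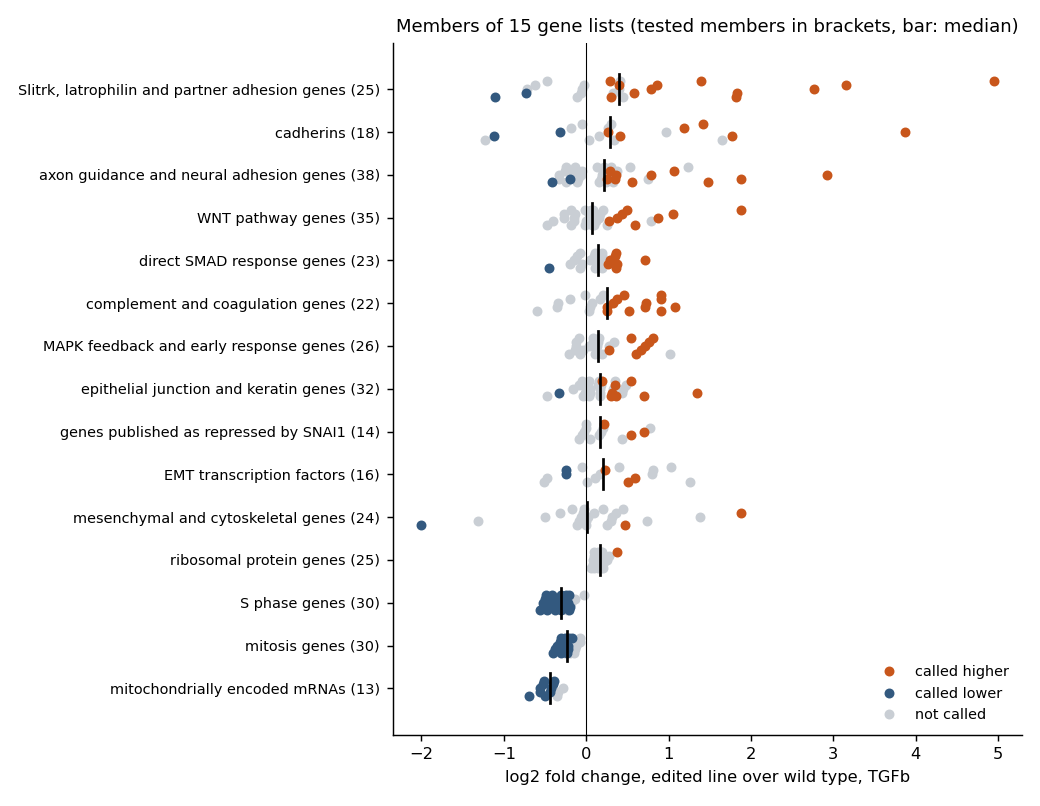
Log2 differences with TGFβ (edited over wild type, on the log2(value + 1) scale) of the tested members of 15 gene lists, with called members marked and each list's median. All 30 tested S phase members lie to the left of 0 (median -0.31). Of the 22 complement and coagulation members, 17 lie to the right (median 0.25).

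Early response genes of the MAPK pathway and their feedback phosphatases gave 7 higher of 26 by limma and 0 lower by limma, edgeR, DESeq2 or an unadjusted limma p under 0.05, with a median of 0.14. FOS, a subunit of the AP-1 factor, read 5638, 5157 and 5203 in treated wild type and 9566, 8298 and 9256 in the treated edited line (0.76 ± 0.09, limma adjusted p = 8.63e-05). DUSP1 and DUSP5, phosphatases that switch MAP kinases off, were higher by 0.71 ± 0.08 and 0.81 ± 0.06 (limma adjusted p of 1.98e-05 and 3.11e-07). DUSP1 read 18157, 16429 and 14928 against 27936, 25116 and 27671, and DUSP5 read 1775, 1812 and 1762 against 3186, 3090.3 and 3120.4. All 3 were above wild type in each edited library. Untreated, FOS and DUSP1 were lower in the edited line (-0.47 and -0.55). Of 26 cytokine and NF-κB genes, 4 were higher and 2 lower with TGFβ and the median was -0.00, whereas untreated 3 were higher and 14 lower with a median of -0.56. CXCL8, the neutrophil chemokine interleukin 8, read 8654, 8588 and 8229 against 12419.5, 11878 and 13679 with TGFβ (0.57 ± 0.09, limma adjusted p = 0.000919). Without TGFβ it read 8057, 6845 and 6589 against 2918, 3877 and 3363 (-1.08), so the line with the higher values changed between the conditions. CCL20, another chemokine, was lower in both conditions (-0.55 ± 0.13 with TGFβ, limma adjusted p = 0.012, and -2.01 untreated). The other higher members with TGFβ were IL11, TNFAIP2 (0.38) and CXCL5 (0.39), and NFKB2 was also lower (-0.23). CXCL5 was not called without edited library 3 (0.34), and NFKB2 not without wild type library 2 (-0.23) or edited library 1 (-0.20) or 3 (-0.23).

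Mitochondrially encoded mRNAs, all transcribed from mitochondrial DNA, gave 10 lower of 13 by limma and 0 higher by limma, edgeR, DESeq2 or an unadjusted limma p under 0.05, with a median of -0.43. MT-ND6, a subunit of respiratory complex I, read 54399, 42493 and 31766 in treated wild type and 30315, 24028 and 23917 in the treated edited line (-0.69 ± 0.15, limma adjusted p = 0.00638). Wild type library 1 was highest and the groups did not overlap. The count of lower members was 6 without edited library 2, 5 without edited library 3 and 2 when only the compared groups were fitted. The 23 nuclear genes of the respiratory chain had a median of 0.00, with 0 called by limma, edgeR or DESeq2 and 1 lower at an unadjusted limma p under 0.05. All 25 ribosomal protein genes had log2 differences above 0, with a median of 0.17, but RPS6 alone was called (0.37 ± 0.10, limma adjusted p = 0.0203), and not without wild type library 2 (0.38) or edited library 1 (0.33) or 3 (0.35). Without wild type library 1, 13 of the 25 were called higher, and with transcript length trends removed 10 were.

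Beyond these lists, the genes at the ends of the ranking had varied roles. The next after CHL1 and NRXN3 were SDS, serine dehydratase (97.8, 70 and 50.4 against 384, 463 and 331), and S100A9, a calcium-binding protein known from neutrophils (44, 65.2 and 38.7 against 298, 208 and 284). FAM83A, which takes part in EGFR signalling, read 119.8, 153 and 114 against 609.7, 686 and 633. Their differences were 2.45 ± 0.25, 2.41 ± 0.20 and 2.32 ± 0.10 (limma adjusted p of 1.44e-05, 1.32e-06 and 4.28e-09), and none overlapped. EDIL3, an integrin ligand of the matrix, SLC16A7, a monocarboxylate carrier, GABRA3, a GABA receptor subunit, HEPH, a copper-dependent ferroxidase, MILR1, an immunoglobulin-type receptor, and DOK6, a docking protein of receptor kinases, were higher by 2.19, 2.10, 2.00, 1.99, 1.93 and 1.92 on the log2 scale, each without overlap and each also higher untreated. This ranking took called genes whose mean over the treated libraries reached 100 and whose groups did not overlap. It was closed at 15 genes a side, and AMTN was the next gene on the higher side (1.90).

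At the lower end, after CNN1, stood OLR1, the receptor for oxidized LDL (202, 185 and 213 in treated wild type against 47, 88.3 and 76.2 in the treated edited line), and ZNF229, a zinc-finger protein (229.7, 250.3 and 210.1 against 86.7, 85.1 and 96.7). PRSS35, a member of the serine protease family, read 1931, 1858 and 1753 against 809, 771 and 792. Their differences were -1.54 ± 0.21, -1.35 ± 0.15 and -1.22 ± 0.14 (limma adjusted p of 0.000233, 2.29e-05 and 2.93e-05), with no overlap, and all 3 were lower untreated too. IGF2, an insulin-like growth factor, read 2469, 2307 and 2308 against 1260.1, 952 and 1045 (-1.13 ± 0.25, limma adjusted p = 0.00756). MEG3, an imprinted long non-coding RNA, read 3309.6, 4591 and 5759 against 1669, 2797 and 1826 (-1.12 ± 0.20, limma adjusted p = 0.00155). C15orf48, a mitochondrial protein of inflamed epithelia, read 7056, 6222 and 5253 against 2970.2, 2634 and 2942 (-1.11 ± 0.11, limma adjusted p = 1.15e-05). The edited libraries were lower throughout, as the ranking required. UGT1A7, a glucuronosyltransferase, GSTM2, a glutathione transferase, HERC5, a ligase for the ubiquitin-like ISG15, CA8, a carbonic anhydrase relative, MAGEH1 and FAM26E differed by -1.12, -1.16, -1.07, -1.05, -1.21 and -1.20. UGT1A7 and GSTM2 belong to families of similar genes whose reads can be split between members. C4orf26, linked to tooth enamel, read 2646, 2375 and 2401 against 1170.3, 942 and 1269.6 (-1.14 ± 0.33, limma adjusted p = 0.0322). Its call was lost without wild type library 1 (-1.09) or 2 (-1.17) or edited library 1 (-1.18), 2 (-1.02) or 3 (-1.23). The next gene on the lower side, outside the 15, was MAP1A (-1.04).

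The untreated comparison used 6 other libraries. There, 2927 genes were higher in the edited line (14.3% of those tested) and 3587 lower (17.5%), with 612 and 412 at 2-fold or more. Of the genes higher with TGFβ, 669 were also higher untreated, which is 44.3% of the treated list and 22.9% of the untreated list. Of those lower with TGFβ, 443 were also lower untreated, 50.1% and 12.4% of the lists. A further 168 genes were higher with TGFβ and lower without it, 66 were the other way round, and 673 higher and 375 lower genes were called with TGFβ alone. Over all tested genes the log2 differences of the 2 conditions correlated at r = 0.279, across genes, which are not independent replicates. The count of genes lower in both was 238 without treated wild type library 2, 285 without treated edited library 3 and 754 without treated wild type library 3.

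**Figure D4:**
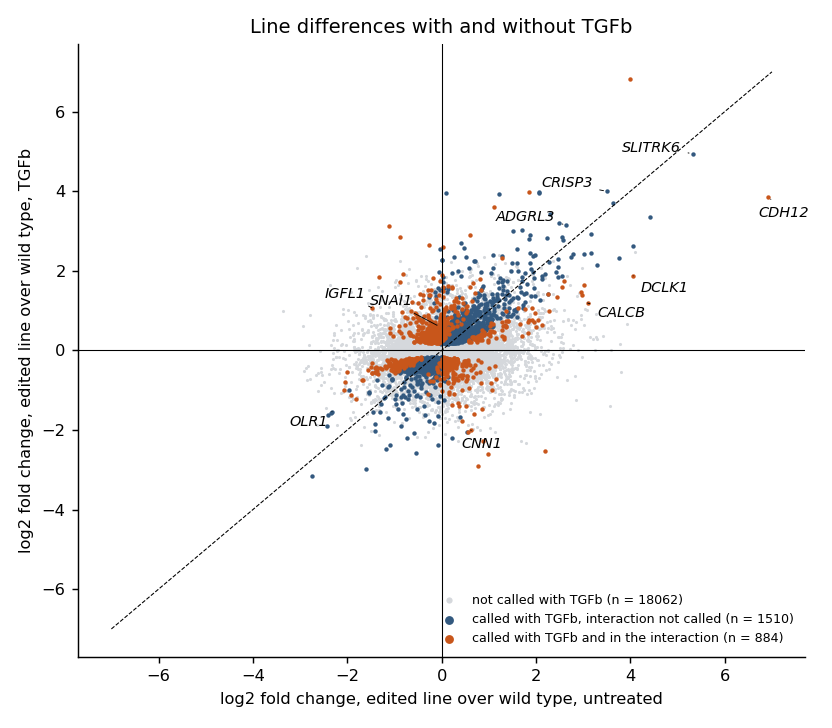
Log2 difference between the lines (edited over wild type) untreated on the x axis and with TGFβ on the y axis, 1 point per tested gene, with the 2394 genes called with TGFβ and the 884 of them that also pass the interaction test marked. Genes such as SLITRK6 and ADGRL3 lie in the upper right, and CNN1 lies low while near 0.62 on the x axis.

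The interaction test asks directly whether the line difference with TGFβ differed from that without. It was higher for 2163 genes (10.6% of those tested) and lower for 1232 (6.02%), and 884 of the 2394 genes called with TGFβ passed it (36.9%), 569 of them higher and 315 lower with TGFβ. The count of 884 was 494 without treated wild type library 2, 586 without treated edited library 1, 468 without treated edited library 3 and 1630 without treated wild type library 3.

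Several named genes were higher in the edited line with TGFβ and either not called or lower untreated. SULT1B1, a sulfotransferase, read 946, 956 and 1261 in treated wild type and 2339.6, 2453 and 2527 in the treated edited line, against 23.9, 29.7 and 18.3 and 10.3, 13.9 and 22.9 untreated. PTPRE, a receptor-type phosphatase, read 97.8, 188 and 154 against 361, 445 and 419 with TGFβ and 26.9, 23.1 and 30.1 against 24.8, 21.5 and 18.8 untreated. The interaction values were 1.84 ± 0.33 and 1.81 ± 0.34 (limma adjusted p of 0.00142 and 0.00204). With TGFβ neither gene overlapped between the lines, which the rule that named them required. AMTN, amelotin, read 109, 77.7 and 105 against 367, 324 and 392 with TGFβ and was listed at 0 in all 6 untreated libraries. IGFL1, of the IGF-like family, read 3313, 3334 and 2475 against 6642, 6081 and 6283 with TGFβ (1.07 ± 0.27, limma adjusted p = 0.017) and 20.6 or less in every untreated library. The treated IGFL1 call was lost without edited library 1 (1.04) or 3 (1.08). METTL7A, a lipid-droplet methyltransferase-like protein, and the transcript RP1-60O19.1 were higher with TGFβ (0.97 and 1.20), and IGFL1 and METTL7A were lower without it (-1.48 and -0.84). ADH4, an alcohol dehydrogenase, and the non-coding LINC00284 rested on a few reads in treated wild type: ADH4 read 4.4, 1.92 and 0 against 16.7, 11.8 and 15.9, and LINC00284 read 2.2, 11.5 and 0 against 20.9, 17.2 and 21.6. Untreated, ADH4 read 338 or more and LINC00284 667 or more in every library, where neither was called.

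Other genes had a larger difference without TGFβ, or the opposite one. DCLK1 and CALCB, a calcitonin gene-related peptide, were higher in both conditions, but by 4.06 and 3.09 untreated against 1.87 and 1.19 with TGFβ. SEMA5A, a semaphorin, and RHCG, an ammonium channel, followed the same order (2.95 and 2.12 untreated, 1.47 and 0.65 with TGFβ). MYH3, embryonic myosin heavy chain, read 163, 175 and 197 in treated wild type and 89.8, 141 and 99 in the treated edited line (-0.71 ± 0.21, limma adjusted p = 0.0353), and 82.7, 106 and 133 against 246, 203 and 265 untreated (1.16). GRIN2C, an NMDA receptor subunit, read 253, 197 and 335 against 123, 164 and 150.2 with TGFβ (-0.82 ± 0.20, limma adjusted p = 0.0149) and 70.8, 97.2 and 80.6 against 154, 134 and 158 untreated (0.84). For both, the line with the higher values differed between the conditions. LINC00707 and CTC-573N18.1 were of the same kind (-0.40 and -0.82 with TGFβ, 1.13 and 1.05 untreated). The treated call was lost for MYH3 without wild type library 2 (-0.72) or 3 (-0.64) or edited library 1 (-0.58) or 3 (-0.65), for GRIN2C without edited library 1 (-0.70) and for CTC-573N18.1 without edited library 3 (-0.71).

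Genes higher in the treated edited line were not spread evenly over the chromosomes. Of 655 tested genes on chromosome 9, 26.1% were higher and 1.22% lower, with a median of 0.18, and of 568 on chromosome 8, 20.1% were higher and 2.11% lower, with a median of 0.15. The other nuclear chromosomes together (15272 genes) had 7.2% higher and 5.15% lower. Both chromosomes together held 285 of the higher genes, 20.6% of those with a position, against 7.4% of the tested genes with a position. The next chromosomes by percentage higher were 18 (13.6%) and 4 (11.1%). Measured library by library against the treated wild type mean, the chromosome 9 median was 0.201, 0.157 and 0.199 in the edited libraries and 0.017, 0.011 and -0.017 in wild type. With TGFβ, every 10-Mb window with tested genes on either chromosome had a median above 0. These ran from 0.105 to 0.301 on chromosome 9 and from 0.059 to 0.203 on chromosome 8. Untreated, some windows lay below 0, the lowest at -0.0324 on chromosome 9 and -0.1124 on chromosome 8. The untreated medians of the whole chromosomes were 0.15 and 0.07. Over all alternatives the treated medians stayed between 0.15 and 0.20 and between 0.12 and 0.16, while the percentage higher without edited library 3 was 15.1 and 10.9. Of the genes described above, TGFBR1, TNC, PTPRD and RPS6 lie on chromosome 9 and FAM83A, KLF10, SNAI2 and CA8 on chromosome 8, CA8 being lower (-1.05).

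**Figure D5:**
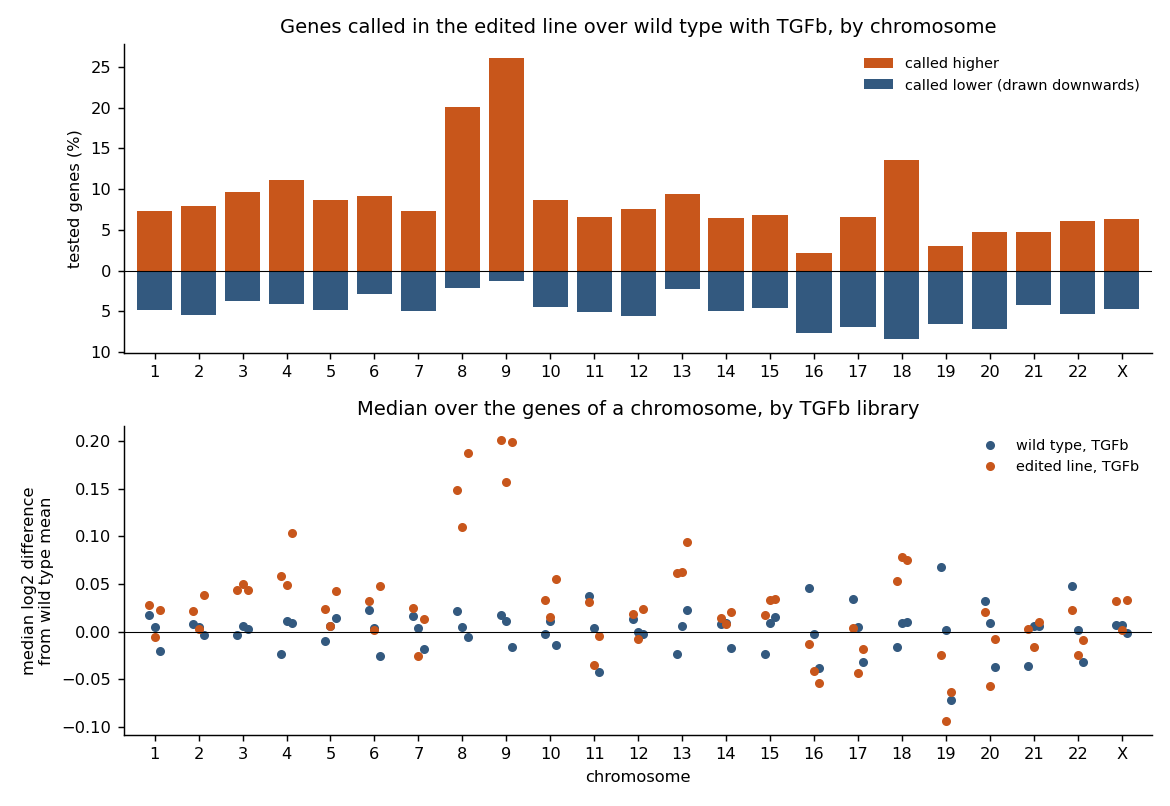
Percentage of tested genes higher and lower in the treated edited line, and their median log2 difference, by chromosome. Chromosomes 9 (26.1% higher) and 8 (20.1% higher) stand above the rest, the next being chromosome 18 at 13.6%.

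Markers of other cell types were looked at for the whole lists. Of 5 tested fibroblast markers, 1 (LUM) was higher, of 4 endothelial markers 1 (EGFL7) was higher, and of 7 leukocyte markers 0 were called by limma, edgeR or DESeq2, or at an unadjusted limma p under 0.05. The shares over all tested genes were 7.38% higher and 4.32% lower by limma. Of all 10 leukocyte markers, 2 were at 0 in all treated libraries. The summed fibroblast markers were 1280 to 1460 for treated wild type and 1690 to 2040 for the treated edited line, the endothelial ones from 908 to 1140 against 1210 to 1490, and the leukocyte ones from 335 to 393 against 411 to 444. On level, 5 of 7 fibroblast, 4 of 9 endothelial and 7 of 10 leukocyte markers passed the filter. Those that did not included DCN, DPT, CDH5, KDR, CD3E and CD68. LUM differed by 0.71 ± 0.17 (limma adjusted p = 0.015) and was not called without wild type library 2 (0.62) or edited library 1 (0.66) or 3 (0.64). EGFL7 differed by 0.42 ± 0.12 (limma adjusted p = 0.0254) and was not called without wild type library 2 (0.43) or 3 (0.31) or edited library 1 (0.41) or 3 (0.35). Of 8 A549 epithelial genes 1, EPCAM, was higher, and their sum was 487000 to 625000 for wild type and 503000 to 577000 for the edited line; the surfactant genes SFTPB and SFTPC of alveolar cells did not pass the filter.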

How the data were processed

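The deposited table holds a signal, normalized counts per gene, that the authors computed. The submitters' processing notes name the tools DESeq2, featureCounts, HISAT2 and StringTie and the build GRCh38.p14. Versions, settings, annotation and use of strand were not given in the sources used here, so values of overlapping, antisense and near-identical genes are uncertain. Values in each library were whole multiples of a constant step, and dividing by it gave whole reads for 100% of values within 0.01 (largest deviation 0.000336). Of the entries, 28 carried names turned into dates; they were counted and not named. No per-sample column was left unused.

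Values were taken as log2(value + 1) and fitted with limma 3.58.1 (trend) in R 4.3.3, with a mean for each of the 4 groups. The 3 contrasts (the lines with TGFβ, the lines untreated and their difference) were two-sided, with Benjamini-Hochberg adjustment over 20456 genes and a threshold of 0.05. Values after ± are standard errors. Groups follow the labels.

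The genes and the 34 gene lists were chosen with earlier results of these data known. The rule named 12 genes with any result, the 15 highest and 15 lowest called genes whose mean reached 100 and whose groups did not overlap, up to 4 called members of a list, and 8 genes each way by interaction. Those 8 were called with TGFβ and in the interaction, with a mean of at least 100 over all libraries and no overlap with TGFβ. For genes named by rank, lack of overlap was thus a condition and not a result. Some genes the rule reaches are not reported here. SOX4, UNC5C, NRP1, CDH8, CDH24, CGN, SERPINE2, ADAMTS1, TGFBR2, TNFAIP2, CXCL5, NFKB2, SPDEF, TFF3, MAP1A and, in the closing section, VEGFA, CA12, AKR1C2, GCLC, SRXN1, ADM, PFKFB4, PIR and TP53INP1 were named outside it, or to complete a small count, after their values were seen. Lists are described by counts and medians without a test of the list.

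The test was also run on simulated counts with known changes. Alternatives covered the pseudocount, filter, scaling, edgeR 4.0.16 and DESeq2 1.42.0 on the recovered reads, a replicate block, the compared groups alone, length and GC trends, and each library left out; leaving out replicate 1 of both treated groups together was chosen after the data were seen. Positions, lengths and GC content came from GENCODE 29 (80.8% of tested entries matched), and microRNA and promoter sequences from RefSeq.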

Additional observations from a re-analysis of the deposited data

Results flagged for a closer look

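For the genes below the difference between the lines changed with TGFβ: the interaction (the log2 difference with TGFβ minus that untreated) passed limma's adjusted threshold. No explanation was tested.

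Among chemokines, early response genes and their regulators the interaction was 1.66 for CXCL8, 1.46 for CCL20, 0.56 for CXCL5, 1.26 for DUSP1, 1.23 for FOS and 0.67 for DUSP5. The epithelial genes EHF, FOXA1, MUC13, EPCAM and CFI had 0.96, 0.68, 0.73, 0.60 and 0.87, and the cadherin CDH24 had 0.47. Among EMT factors it was 0.62 for SNAI1, 0.67 for SOX4, 0.54 for HMGA2 and 0.34 for SOX9. SNAI1 lost this call when any of 6 single libraries was left out, as given with its values above. SOX9 lost it without treated wild type library 2 (0.34), any treated edited library (0.33 to 0.35), untreated wild type library 1 (0.30) or 3 (0.31), or untreated edited library 1 (0.36) or 2 (0.26). Matrix and motility genes included CD44 (0.90), LOX (0.86), COL5A2 (0.51), VIM (0.53), NTN1 (0.98) and NRP1 (0.31). Signalling genes included WNT5A (0.89), KLF10 (0.65) and TGFBR2 (0.30, lost without treated edited library 3 at 0.28). Of metabolic and other genes, ADH4 had 2.91, IGFL1 2.55, SULT1B1 1.84, METTL7A 1.81, PTPRE 1.81, RP1-60O19.1 1.70, FAM83A 1.04, UGT1A7 0.81, VEGFA 0.47 and ADM 0.45.

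The interaction was negative for CDH12 (-3.06), CNN1 (-2.62), DCLK1 (-2.19), CALCB (-1.90), CTC-573N18.1 (-1.88), MYH3 (-1.87), GRIN2C (-1.66), LINC00707 (-1.53), SEMA5A (-1.48) and RHCG (-1.47). It was also negative for IL11 (-1.25), MMP14 (-1.19), PFKFB4 (-1.01), C15orf48 (-0.82), ZMAT3 (-0.68), SRXN1 (-0.64), TP53INP1 (-0.60), PLAU (-0.55), OSGIN1 (-0.55), TP53I3 (-0.46), CDC6 (-0.46), SERPINE2 (-0.45) and PLAUR (-0.43). PLAUR lost the call without treated wild type library 2 (-0.43), treated edited library 2 (-0.37) or 3 (-0.45), untreated wild type library 2 (-0.40) or 3 (-0.43), or untreated edited library 1 (-0.43) or 2 (-0.36). CDH12 was listed at 0 in untreated wild type, so its value depends on the pseudocount: with 10 it was -0.43 and not called.

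Some calls were lost in many settings. AMTN (1.90), listed at 0 in every untreated library, lost it with edgeR and DESeq2, and without treated wild type library 2 (1.74) or treated edited library 1 (1.88) or 3 (1.83). LINC00284 (2.59) lost it without any treated edited library (2.53 to 2.68) or any untreated library (2.54 to 2.66), and was 1.70 without treated wild type library 3. PRSS35 (0.60) lost it without treated wild type library 2 (0.60) or 3 (0.56), any treated edited library (0.58 to 0.62), untreated wild type library 1 (0.44) or 3 (0.62), or untreated edited library 1 (0.56) or 2 (0.49). CA9 (1.32) lost it without treated wild type library 2 (1.38) or 3 (1.00), any treated edited library (1.25 to 1.43), untreated wild type library 1 (1.19) or 3 (1.22), or untreated edited library 2 (0.98). SLC16A3 (0.57) lost it without treated wild type library 2 (0.56) or 3 (0.52), any treated edited library (0.52 to 0.60), untreated wild type library 1 (0.50) or 3 (0.48), or untreated edited library 2 (0.43).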

How the results depend on the processing

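Genes higher with TGFβ (1510) ranged from 896 to 2249 with single libraries left out and numbered 859 when only the compared groups were fitted. Genes lower (884) ranged from 417 to 1580 in the same way, and numbered 1355 with equal library totals, 1345 with quantile normalization, 1332 with length trends removed, 324 with only the compared groups and 540 with replicate 1 of both treated groups left out. Genes lower in both conditions (443) ranged from 238 to 754 and numbered 668 with length trends removed. Treated genes that passed the interaction test (884) ranged from 468 to 1630 and numbered 1378 with length trends removed. The cause of these shifts was not tested. edgeR called 1513 higher and 1051 lower, and DESeq2 1950 and 1320.

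A replicate block gave 1863 higher and 1124 lower. Same-numbered libraries did not deviate together in every pair (correlations of 0.439, 0.0709 and -0.019 between the treated groups), and wild type library 3 correlated best with edited library 2 (0.379). Untreated wild type library 1 also correlated with treated wild type library 1 (0.342) and treated edited library 1 (0.192). Untreated edited library 1 correlated with treated edited library 1 at 0.0625. These correlations cannot settle whether equal numbers mark a shared batch, and the main fit did not pair them.

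For the 138 genes named in the text, 27 alternatives left the side of the threshold and direction of the treated difference unchanged in 93. VIM, not called, read -0.04, ranged from -0.161 to 0.0685 with single libraries left out (the highest without treated wild type library 1), and was 0.0504 with replicate 1 of both treated groups left out. Of the named genes, 26 were not called when the untreated groups were left out of the fit, 23 with replicate 1 of both treated groups left out, 22 without treated edited library 3 and 20 without treated wild type library 2. C4orf26, FLRT2, MYH3, NRP1, SOX9, TFF3 and TP53INP1 were not called without a filter, SOX9, NFKB2 and TP53INP1 with GC trends removed, TP53INP1 with equal library totals, TFF3 and TP53INP1 with quantile normalization, C4orf26 with a pseudocount of 0.5, TFF3 with 10 and SPDEF with edgeR. Genes read at a few counts in a group have folds that depend on the pseudocount.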

Other observations

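A few further gene groups differed with TGFβ and are given as values. Of 27 hypoxia and glycolysis genes, 4 were higher in the treated edited line and 2 lower, with a median of -0.12. Over all tested genes, 7.38% were higher and 4.32% lower with TGFβ. SLC16A3, the lactate exporter, read 968, 892 and 842 in treated wild type and 2043, 1828 and 1882 in the treated edited line (1.09 ± 0.13, limma adjusted p = 5.46e-05). CA9, a carbonic anhydrase on the cell surface, read 102, 76.7 and 44.5 against 188, 201 and 156 (1.35 ± 0.30, limma adjusted p = 0.00791). CA12, its relative, and VEGFA, the vessel growth factor, were the other higher members (0.49 and 0.28), and VEGFA was not called with transcript length trends removed (0.157, limma adjusted p = 0.229). ADM, the peptide adrenomedullin, and PFKFB4, a regulator of glycolysis, were lower (-0.48 and -0.64), so members of the list moved in both directions. Without treated wild type library 3, 6 members were lower.

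Of 26 targets of NRF2, the factor of the oxidative stress response that A549 cells keep active through a KEAP1 mutation, 1 was higher and 5 were lower, with a median of -0.14. OSGIN1 read 1796, 1673 and 1468 against 1111, 997 and 976 (-0.68 ± 0.08, limma adjusted p = 3.27e-05) with no overlap. PIR, AKR1C2, GCLC and SRXN1 were the other lower members (-0.45, -0.35, -0.33 and -0.33) and ALDH3A1, an aldehyde dehydrogenase, was the higher one (0.53). SRXN1 was not called without wild type library 2 (-0.26) or edited library 1 (-0.33) or 3 (-0.31). With equal library totals or without wild type library 3, 10 were lower. Of 22 p53 targets, 3 were higher and 1 lower with TGFβ (median 0.12), against 15 and 1 untreated (median 0.29). Over all tested genes, 14.3% were higher and 17.5% lower untreated, and 7.38% and 4.32% with TGFβ. ZMAT3, RRM2B and TP53INP1 were higher (0.35, 0.38 and 0.26) and TP53I3 was lower (-0.40). RRM2B and TP53INP1 lie on chromosome 8, where 20.1% of all tested genes were higher with TGFβ. TP53INP1 was not called without treated wild type library 1 (0.21) or 2 (0.23), treated edited library 1 (0.25) or 3 (0.24) or untreated edited library 1 (0.26). With equal library totals 2 were higher and 3 lower, and without wild type library 3 it was 5 and 3.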
